A study of Mus musculus with 6 samples.

Results

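The 10 genes described here encode the core of the cellular oxygen sensor, namely the hypoxia-inducible factor (HIF) subunits Hif1a, Epas1, Hif3a, Arnt and Arnt2 and the proteins that mark or destroy them, Egln1, Egln2, Egln3, Hif1an and Vhl. They were taken from a list of oxygen-sensing genes, and all 10 had a probe set with a single gene symbol, among 19938 genes measured in this way. Where a gene had several such probe sets, the brightest by its mean over the 6 arrays was to be used, but each of the 10 had 1, so although probe sets were chosen by mean level, that value decided nothing for these genes. The list was drawn up with an earlier fit of the same arrays known, in which Egln3 had passed, so its place in the list is no independent evidence.

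The tissue was the neocortex, the layered sheet that makes up most of the cerebral cortex, taken from 6 mouse embryos at embryonic day 14.5. The controls were 3 embryos of the genotype Bcl11a+/+. The mutants were 3 embryos of the genotype Bcl11aΔflox/Δflox, in which both copies of a floxed Bcl11a allele had been deleted. Bcl11a, also called Ctip1, encodes a zinc finger transcription factor, and the title of the study ties it to the migration of cortical projection neurons and to the semaphorin gene Sema3c. The sources used here do not name the Cre line or the cells in which it acted. RNA came from each embryo separately, and each gave 1 array of log2 values, so every SD below is over 3 embryos.

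Across the array, Bcl11a fell by 0.84 on the log2 scale and Sema3c rose by 1.27, each with an adjusted p of 0.00201 in limma. The sources used here do not place the Bcl11a probes against the deleted stretch, so this fall is a limited check of the labels. Of the 9 measured markers of cortical projection neurons, the mean level was 11.54 to 11.62 in controls and 11.64 to 11.66 in mutants, while 7 markers of choroid plexus, a neighbouring tissue, averaged 5.63 to 5.89 and 5.78 to 5.82. Mutant replicate 1 stood apart in genes of pericytes and meninges, whose 16 markers averaged 8.11 there, 7.43 to 7.46 in the other mutants and 7.26 to 7.33 in controls. By Xist and Y-linked genes, 3 embryos were female and 3 male, with both sexes in each group but unequally split. The females were control replicates 1 and 3 and mutant replicate 2. None of the 10 genes lies on chromosome 11, which carries Bcl11a.

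HIF is a pair of proteins, an oxygen-labile alpha subunit (encoded by Hif1a, Epas1 or Hif3a) and a stable partner (Arnt or Arnt2). With oxygen present, the prolyl hydroxylases encoded by Egln1, Egln2 and Egln3 add hydroxyl groups to the alpha subunit, the von Hippel-Lindau protein (Vhl) binds the hydroxylated form, and the ubiquitin ligase around it sends the subunit to the proteasome. The asparaginyl hydroxylase encoded by Hif1an blocks the binding of coactivators. Without oxygen the pair binds short DNA motifs and raises genes of glycolysis, vessel growth and red cell production. Egln3 and, to a lesser degree, Egln1 are themselves known HIF target genes, which makes the enzymes part of a feedback loop. This control acts mainly on protein, and an array reads only messenger RNA.

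Of the 10 genes, 1 rose and none fell in the mutants at an adjusted p under 0.05 in limma. Of all genes tested 0.286% passed, 0.246% higher and 0.0401% lower. At an unadjusted p under 0.05 the count was also 1, against 6.05% of all genes. The gene was Egln3, which was 1.93-fold higher. The median difference of the 10 was 0.06 on the log2 scale, against 0.02 over all genes, and 7 of the 10 differences were positive, as were 60.3% of all differences. All mutants lay above all controls for 2 of the 10, Egln3 and Arnt, as they did for 7.69% of all genes.

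**Figure D1:**
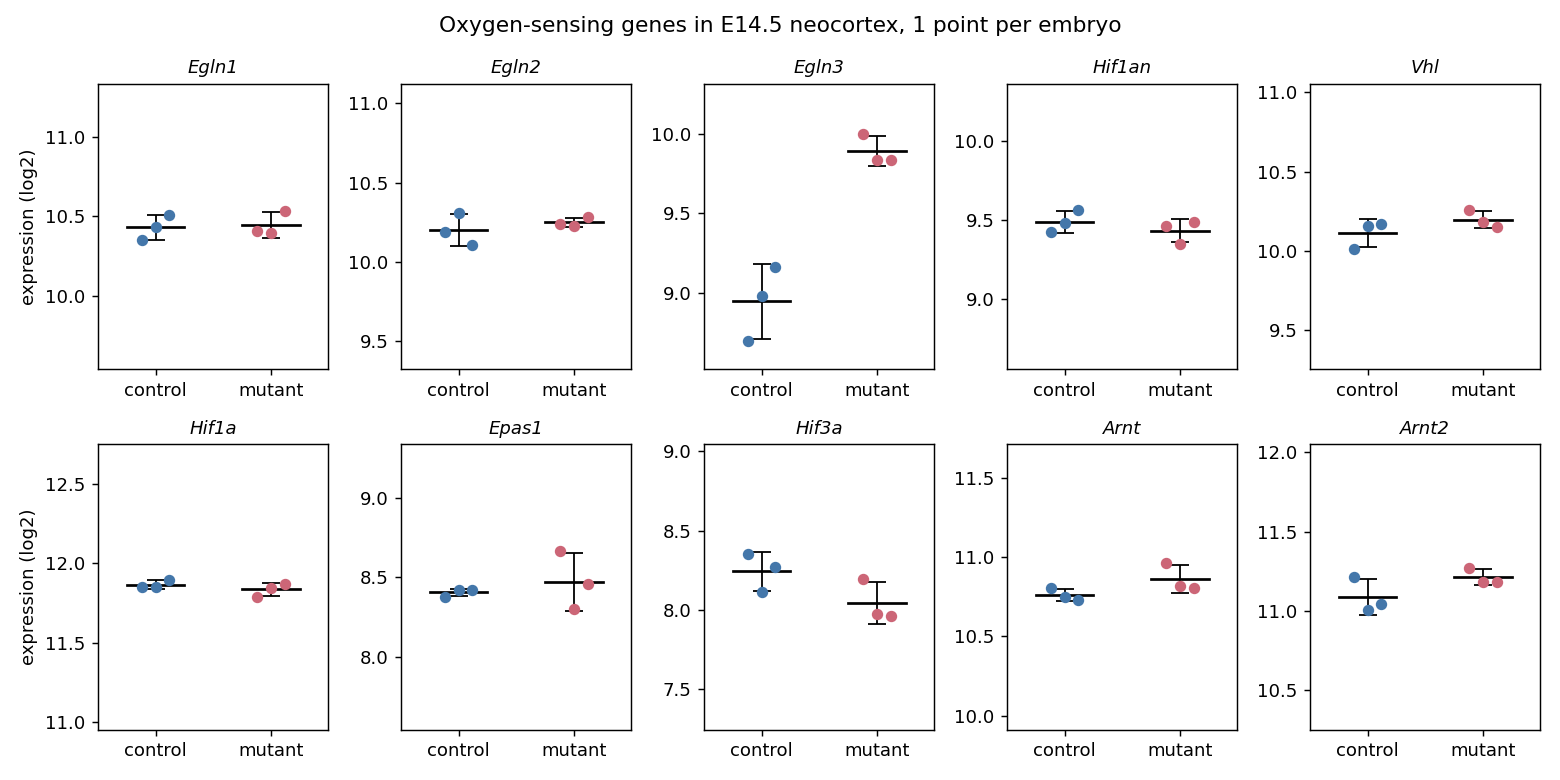
Log2 expression of the 10 genes, with 1 panel per gene, 1 point per embryo (controls blue, mutants red), a bar at the group mean and whiskers of 1 SD over 3 embryos; every vertical axis spans the same number of log2 units around the gene's own mean. The 3 Egln3 mutants lie at 9.83 to 10.001, above the controls at 8.70 to 9.16, while in every other panel the groups overlap or, for Arnt, nearly touch.

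Egln3 is the prolyl hydroxylase whose messenger RNA is known to rise strongly in hypoxia in many cell types. Its log2 values (Entrez 112407) were 8.70, 8.98 and 9.16 in control replicates 1, 2 and 3, and 10.001, 9.84 and 9.83 in the mutants. The lowest mutant lay 0.67 above the highest control, and that gap was wider than the spread of 0.47 among the controls or of 0.17 among the mutants. The controls averaged 8.95 ± 0.24 and the mutants 9.89 ± 0.09 (SD, n = 3 embryos per group). Egln3 thus rose by 0.95 ± 0.11 (SE) on the log2 scale, with an adjusted p of 0.0136 in limma. The 95% interval of the difference ran from 0.69 to 1.20, or from 1.61-fold to 2.31-fold. By size of difference Egln3 ranked 24 among the 19938 genes, and by p it ranked 31.

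The call of Egln3 depended on which embryos were in the fit, but the size of the difference moved little. It passed without control replicate 1 (adjusted p = 0.0136) and without control replicate 3 (0.00868). It did not pass in limma without control replicate 2 (adjusted p = 0.0778) or without mutant replicate 1, 2 or 3 (0.0952, 0.0695 and 0.0611). It also did not pass with the sex of the embryo as a covariate (adjusted p = 0.0606). Over the 6 fits that left out 1 embryo the difference stayed between 0.82 and 1.05, and the lowest bound of any 95% interval was 0.59.

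**Figure D2:**
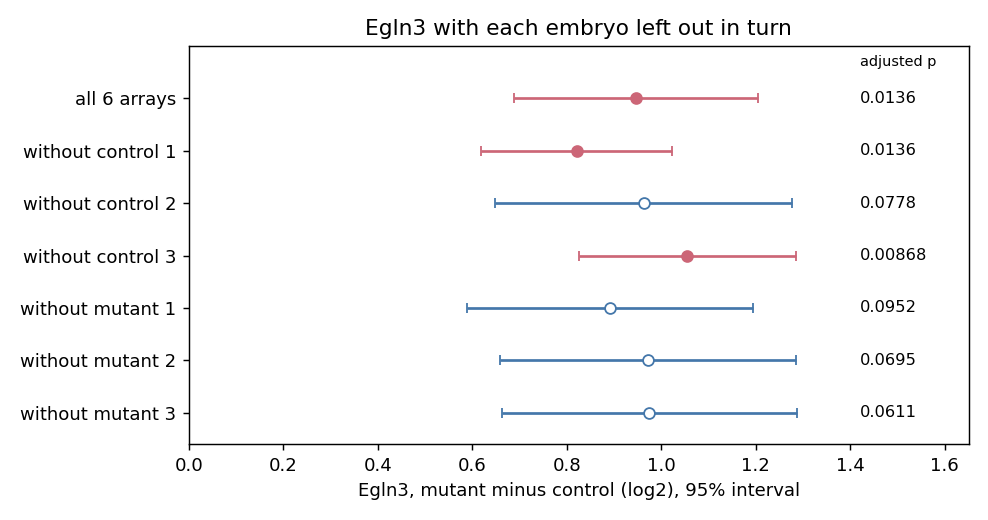
Difference in Egln3 between mutants and controls on the log2 scale with its 95% interval from limma, for all 6 arrays and with each embryo left out in turn; filled red points passed at an adjusted p under 0.05 and open blue points did not, with the adjusted p at the right. All 7 intervals lie above 0, and 4 of the fits with 5 arrays had an adjusted p between 0.0611 and 0.0952.

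The paralogs of Egln3 did not pass. Egln1, the hydroxylase that sets normal HIF levels in most tissues, read 10.35, 10.44 and 10.51 in controls and 10.41, 10.39 and 10.54 in mutants. These values interleave, with a difference of 0.01 ± 0.07 (SE) and a 95% interval of 0.905-fold to 1.13-fold. Egln2, a mainly nuclear member of the family, read 10.19, 10.31 and 10.11 in controls and 10.24, 10.22 and 10.28 in mutants. All 3 mutants lay inside the range of the controls, and the interval of the difference of 0.05 ran from 0.928-fold to 1.15-fold. Within each array, Egln3 minus the mean of Egln1 and Egln2 was -1.57, -1.39 and -1.14 in controls and -0.32, -0.47 and -0.58 in mutants. The groups differed by 0.91 ± 0.14 (SE), and an exact permutation test (two-sided) gave p = 0.1, its lower limit for 3 against 3 arrays. The groups did not overlap, and a test of this size cannot reach 0.05. This contrast was chosen with the rise of Egln3 known. With differences of only 0.01 and 0.05 in Egln1 and Egln2, it largely restates the Egln3 difference of 0.95 and is no separate result.

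The 250 bases before the RefSeq start of each prolyl hydroxylase gene (assembly GRCm38.p6) are shown because HIF is known to act on DNA near its target genes. Egln3 passed and its paralogs did not, and the part of HIF or of these windows in that was not tested. Lower case letters run 5′ to 3′ on the gene's own strand, and capitals mark ACGTG or GCGTG, the core of the hypoxia response element, read on either strand. All 3 genes lie on the minus strand of their chromosomes. The Egln3 window is chr12:54203875-54204124, that of Egln1 is chr8:124949255-124949504, and that of Egln2, for the first of 2 starts in the table, is chr7:27166803-27167052.
Egln3: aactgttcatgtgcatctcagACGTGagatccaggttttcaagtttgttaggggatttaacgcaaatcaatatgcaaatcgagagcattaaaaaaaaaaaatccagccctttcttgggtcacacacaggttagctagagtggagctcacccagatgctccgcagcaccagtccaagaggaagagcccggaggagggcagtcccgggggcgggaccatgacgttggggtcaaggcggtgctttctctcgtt
Egln1: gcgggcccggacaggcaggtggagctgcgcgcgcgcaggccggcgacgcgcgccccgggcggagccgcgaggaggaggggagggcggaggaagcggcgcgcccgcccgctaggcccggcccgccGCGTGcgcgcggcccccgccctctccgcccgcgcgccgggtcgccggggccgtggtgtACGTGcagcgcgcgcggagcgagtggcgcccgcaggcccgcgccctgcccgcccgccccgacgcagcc
Egln2: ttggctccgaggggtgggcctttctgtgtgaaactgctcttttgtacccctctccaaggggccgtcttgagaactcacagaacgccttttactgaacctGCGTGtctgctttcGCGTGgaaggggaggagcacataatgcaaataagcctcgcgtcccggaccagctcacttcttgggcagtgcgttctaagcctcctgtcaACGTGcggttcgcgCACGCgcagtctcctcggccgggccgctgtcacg
The Egln3 window held 1 match, whose first base is 229 bases before the start. The Egln1 window held 2, at 126 and 68 bases, and the Egln2 window held 4, at 151, 137, 48 and 34 bases. The window of the second Egln2 start held 1, as that of Egln3 did. The Egln1 window was 86.0% G and C with 51 CpG pairs, the Egln3 window 50.8% with 10, and the first Egln2 window 59.2% with 20 (the second 48.0% with 4), where the median promoter had 52.4% and 6. Of the 10 genes, 9 were matched to the promoter table with 10 windows in all, 7 of these windows held a match, and 38.6% of all 32841 windows of this length did. A match in these letters is a description and not a binding site, and elements outside the window were not searched.

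**Figure D3:**
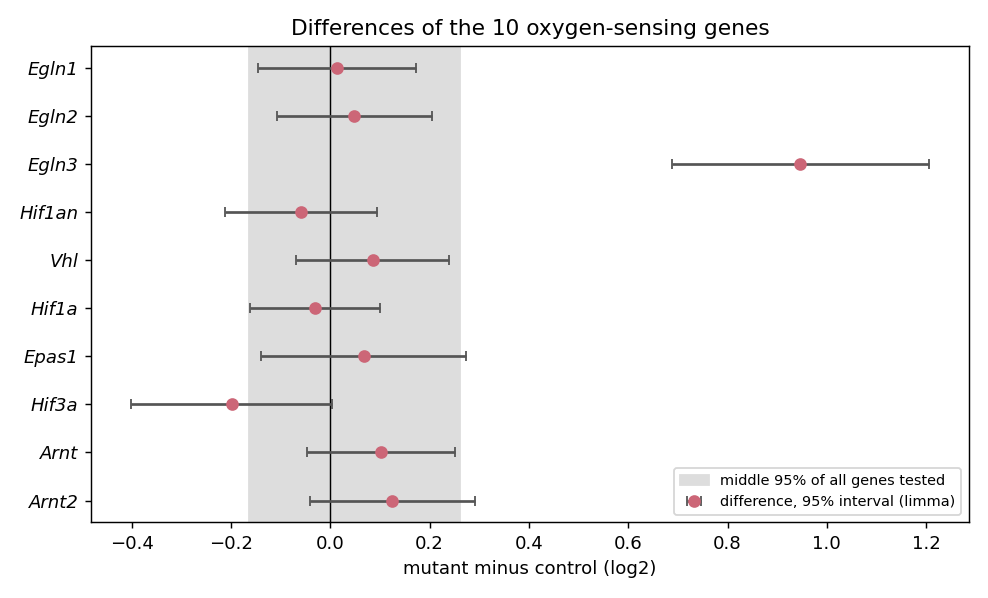
Mutant minus control difference of each of the 10 genes on the log2 scale (points) with its 95% interval from limma (whiskers); the grey band spans the middle 95% of all genes tested, from -0.16 to 0.26. The Egln3 interval, from 0.69 to 1.20, lies wholly above the band, and the 9 other intervals include 0.

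The remaining enzyme and the ubiquitin ligase subunit did not pass. Hif1an, the asparaginyl hydroxylase also called FIH, averaged 9.49 ± 0.07 in the controls and 9.43 ± 0.07 in the mutants (SD, n = 3 embryos per group). Its values of 9.43, 9.48 and 9.57 against 9.46, 9.35 and 9.49 overlapped, and the interval of the difference of -0.06 ran from 0.864-fold to 1.07-fold. Vhl, which recognises the hydroxylated alpha subunit, averaged 10.11 ± 0.09 in the controls and 10.20 ± 0.06 in the mutants (SD, n = 3 embryos per group). Control replicate 1 was the lowest of its 6 values, at 10.01, and the interval of the difference of 0.09 ran from 0.953-fold to 1.18-fold.

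Among the alpha subunits no gene passed. Hif1a, the broadly expressed one, read 11.85, 11.85 and 11.90 in controls and 11.79, 11.85 and 11.87 in mutants. It had the smallest spread within groups of the 10 genes, with a residual SD of 0.03 against a median of 0.09 over all genes. The difference was -0.03, and its interval of 0.894-fold to 1.07-fold was the narrowest of the 10. Epas1 encodes the subunit HIF2A, which is best known from endothelial cells. It read 8.38, 8.42 and 8.42 in controls and 8.66, 8.30 and 8.46 in mutants, so that the mutants spread over 0.37 and the controls over 0.04. Mutant replicate 1 was the highest Epas1 value, and without it the difference of 0.07 became -0.03. That array was also the highest for endothelial markers, whose 15 genes averaged 8.94 there, 8.65 to 8.73 in the other mutants and 8.58 to 8.77 in controls, and the part of these cells in the Epas1 values was not tested. In such bulk tissue, fewer cells of a type and less RNA per cell cannot be told apart.

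Hif3a, a subunit with forms that restrain the other two, had the lowest unadjusted p after Egln3. Its values were 8.35, 8.11 and 8.27 in controls and 8.20, 7.97 and 7.96 in mutants. Mutant replicates 2 and 3 lay below all controls, and mutant replicate 1 lay between them. The difference was -0.20 ± 0.09 (SE, limma adjusted p = 0.850, unadjusted p = 0.0533), and its interval ran from 0.757-fold to 1.00-fold. With 1 embryo left out at a time it stayed between -0.27 and -0.15.

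The partner subunits had small positive differences that did not pass. Arnt, the general partner and also the partner of the dioxin receptor Ahr, read 10.80, 10.75 and 10.73 in controls and 10.96, 10.82 and 10.81 in mutants. The groups did not overlap, but the lowest mutant was 0.01 above the highest control, and the difference of 0.10 had an adjusted p of 1.00 in limma. Arnt2, the form known from neurons, read 11.22, 11.00 and 11.05 in controls and 11.27, 11.19 and 11.18 in mutants. Control replicate 1 lay above mutants 2 and 3, and the interval of the difference of 0.12 ran from 0.972-fold to 1.22-fold.

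Genes on a list of red blood cell markers rose beside Egln3. In such bulk tissue, more red cells and more RNA of these genes per cell cannot be told apart, and neither was tested. Of 11 measured erythroid genes 6 rose, which were Hbb-bh1, Hba-x, Slc4a1, Kel, Rhag and Epb42, and none fell, where 0.246% of all genes were higher. At an unadjusted p under 0.05 there were 9, against 6.05% of all genes. Their list averaged 7.36 to 7.53 in controls and 8.48 to 8.61 in mutants. The differences ran from 0.01 to 5.02 with a median of 0.66, so this average leans on the largest of them. Car2 and Alas2, at 1.24 and 0.71, did not pass, and the erythroid transcription factor genes Gata1 and Klf1 differed by 0.01 and 0.11. None of 16 pericyte and meningeal genes passed in limma (5 at an unadjusted p under 0.05), with Dcn and Lum at 2.09 and 0.91 and Notch3 and Kcnj8 at -0.11 and -0.02. Their median of 0.26 was 0.10 without mutant replicate 1. None of 13 microglial genes passed in limma (5 at an unadjusted p under 0.05), with Fcrls and Mrc1 at 0.45 each and Aif1 and Itgam at 0.05 and 0.07. Their list averaged 6.85 to 6.98 in controls and 7.05 to 7.27 in mutants. None of 15 endothelial genes passed in limma (3 at an unadjusted p under 0.05), from Mfsd2a at -0.33 and Egfl7 at 0.00 to Slco1c1 at 0.30 and Tek at 0.32. Positive differences numbered 13 of 13 microglial, 14 of 15 endothelial and 14 of 16 pericyte and meningeal genes, against 60.3% of all genes. Without mutant replicate 1 the microglial median of 0.21 was 0.13 and the endothelial median of 0.09 was 0.01. The Egln3 difference was 0.89 without mutant replicate 1 (limma adjusted p = 0.0952), and the part of erythroid, microglial, pericyte, meningeal or endothelial cells in it was not tested.

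Among markers of neural cells and choroid plexus 1 gene passed. Of all genes tested 0.286% passed in limma and 6.05% had an unadjusted p under 0.05. None of 11 radial glia genes passed in limma (2 at an unadjusted p under 0.05), with Hopx and Hes5 at -0.43 and -0.17 and Tnc and Slc1a3 at 0.20 and 0.04. None of 6 intermediate progenitor genes passed (2 at an unadjusted p under 0.05), with Eomes and Insm1 at 0.21 and 0.08 and Gadd45g and Neurog1 at -0.19 and -0.03. None of 9 projection neuron genes passed (2 at an unadjusted p under 0.05), with Bcl11b and Mapt at 0.29 and 0.19 and Slc17a7 and Fezf2 at -0.19 and -0.04. None of 7 choroid plexus genes passed (0 at an unadjusted p under 0.05), from Ttr at -0.06 and Kcne2 at -0.04 to Otx2 at 0.09 and Folr1 at 0.10. Of 11 genes of interneurons and the ganglionic eminence 1 rose, the transcription factor gene Ebf1 at 0.88, with Lhx6 and Gad2 at 0.28 and 0.12 and Nkx2-1 and Dlx6 at -0.05 and 0.00.

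The genes around the sensor were read from lists of the rest of the pathway, without the 10 genes. Of all genes tested 6.05% had an unadjusted limma p under 0.05. Of 16 measured genes of the VHL ubiquitin ligase and of HIF turnover none passed in limma, and 1 had an unadjusted p under 0.05. This was Siah2, a ubiquitin ligase that acts on the prolyl hydroxylases, at 0.18, and Usp20, a deubiquitinase, followed at 0.12. Cops5 and Hsp90aa1, the lowest of the list, were at -0.07 and -0.05. Of 17 HIF cofactors none passed in limma (2 at an unadjusted p under 0.05). These 2 were Cited2, which competes with HIF for its coactivators, at 0.21, and Ncoa1 at 0.15. Cited4 was at 0.16, and Hdac3 and Ruvbl2 were at -0.11 and -0.03. Of 13 other bHLH-PAS factors, the family of Hif1a and Arnt, none passed in limma (2 at an unadjusted p under 0.05). Those were the neuronal factors Npas1 at 0.27 and Npas3 at 0.24, and Ahrr and Arntl2 were at -0.16 and -0.09.

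Other dioxygenases that need 2-oxoglutarate, as the Egln enzymes do, did not pass either. Their list held collagen hydroxylases and histone demethylases and also Tet1, Tet2 and Tet3, which act on DNA. Of 30 measured, none passed in limma and 2, P4ha3 and Kdm2b, had an unadjusted p under 0.05, against 6.05% of all genes. P4ha3, a collagen prolyl hydroxylase subunit, was at -0.41, with means of 8.45 ± 0.23 and 8.04 ± 0.11 (SD, n = 3 embryos per group) and an adjusted p of 0.355 in limma. Kdm5c, a histone demethylase gene on the X chromosome, was at -0.14. It read 10.78 to 10.95 in the female embryos and 10.51 to 10.59 in the male ones, and the sexes were unequally split between the groups. The highest of the list were Kdm2b at 0.17 and P4ha1 at 0.16. The list median was 0.02, against 0.02 over all genes.

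Among 44 measured HIF target genes 1 rose and none fell. The median difference was 0.02, against 0.02 over all genes, 28 differences were positive, against 60.3% of all genes, and 5 genes had an unadjusted p under 0.05, against 6.05% of all genes. The gene was Hmox1, the inducible heme oxygenase, which many stimuli besides HIF induce. It read 7.25, 7.65 and 7.40 in controls and 8.69, 8.60 and 8.57 in mutants, a rise of 1.19 ± 0.10 (SE, limma adjusted p = 0.00201), and it passed in all 6 fits that left out 1 embryo. Lox, a collagen crosslinking enzyme, was at 0.91 without passing (limma adjusted p = 0.923). Its values of 7.66, 5.81 and 5.59 in mutants put mutant replicate 1 far above the other 5 embryos, and without that array the difference was 0.26. Slc16a3, a lactate exporter, followed at 0.27, with 8.80, 8.54 and 8.68 in mutants above 8.39, 8.41 and 8.42 in controls, and did not pass (limma adjusted p = 0.364). Tfrc, the transferrin receptor, was at -0.17 and Aldoc, an aldolase, at -0.15.

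Besides Hmox1, Slc16a3 and Aldoc, the targets with an unadjusted p under 0.05 were Stc2 and Bnip3, neither of which passed. Stc2, a secreted glycoprotein, differed by 0.17, and Bnip3, a mitophagy receptor, by 0.20 with a 95% interval of 0.01 to 0.39. For the 39 other targets the interval included 0. Among these, named after their values were seen because they are widely used readouts of HIF, the vessel growth factor Vegfa differed by -0.01 (-0.15 to 0.14). Ldha, which makes lactate, differed by -0.01 (-0.18 to 0.16), Pdk1, which holds pyruvate out of mitochondria, by -0.15 (-0.37 to 0.07), and the glucose transporter Slc2a1 by 0.12 (-0.05 to 0.29). Slc2a1 is also on the endothelial list. It read 11.81 in mutant replicate 1, 11.59 and 11.66 in the other mutants and 11.50 to 11.64 in controls.

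**Figure D4:**
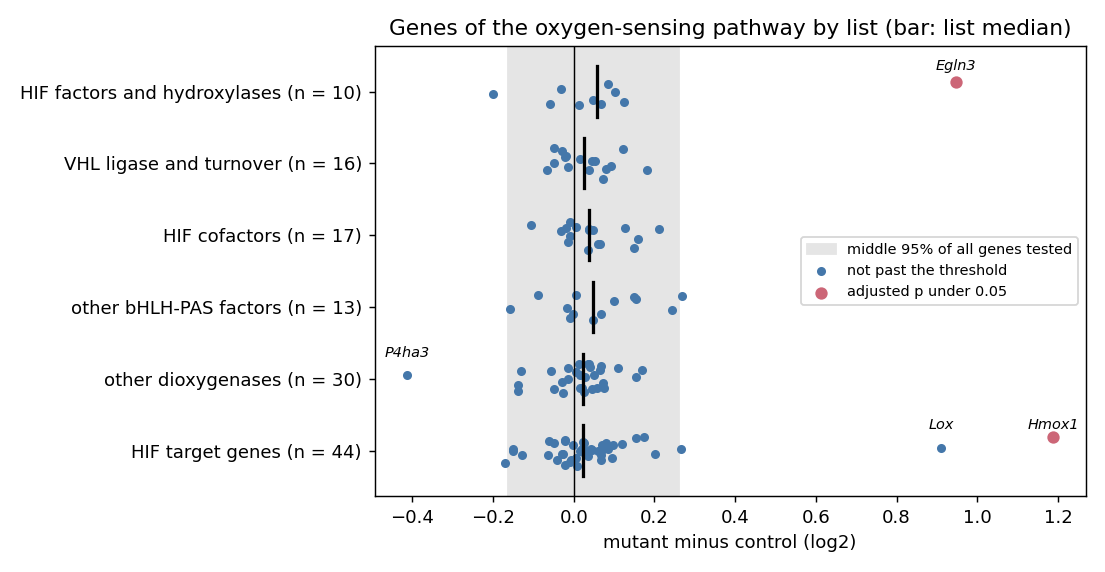
Mutant minus control differences on the log2 scale for the 10 genes and 5 further lists of the pathway, with 1 point per gene, red where the adjusted p in limma was under 0.05, a black bar at the list median and a grey band over the middle 95% of all genes; vertical scatter is for legibility. Egln3 at 0.95 and Hmox1 at 1.19 are the 2 red points, Lox at 0.91 and P4ha3 at -0.41 are the labelled genes that did not pass, with Hif3a, Npas1, Slc16a3 and Tfrc also just outside the band, and all list medians lie between 0.02 and 0.06.

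The genes whose pattern over the 6 embryos was nearest to that of Egln3 were Gdpd2, Klhl35, Ebf1, Gpr158 and Plcd1. Nearness was the root mean square distance between log2 values after each gene was centred on its mean, and it was 0.05 for Gdpd2, 0.09 for Klhl35 and 0.11 for the 3 others, against a median of 0.49 over all genes. Gdpd2 encodes a glycerophosphodiester phosphodiesterase and read 7.50, 7.85 and 7.90 in controls and 8.74, 8.68 and 8.65 in mutants. Like Egln3 it was lowest in control replicate 1 and highest in mutant replicate 1. These genes share the genotype difference by construction, so their rise is no separate result.

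For Epas1 the nearest genes were Hsd17b7, Hyal6, Wars2, Dsg4 and Ttc7b, at distances of 0.02 to 0.03 against a median of 0.13. All 5 were highest in mutant replicate 1 and lowest in mutant replicate 2. Their differences between the groups were 0.03 to 0.08, which the nearness to Epas1 fixes and which is no separate result. None of the 5 is on the endothelial list. Hyal6 read 4.84 to 5.13 and Dsg4 5.05 to 5.36, which is near background. Y-linked genes in the female embryos read 4.68 to 5.59.

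**Figure D5:**
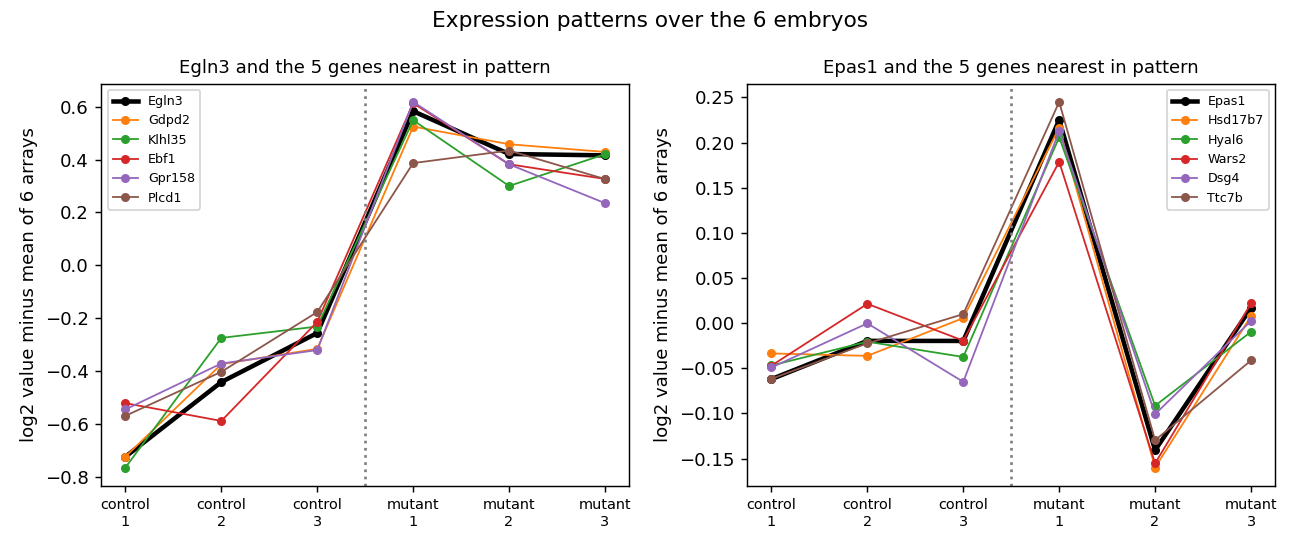
Log2 values centred on each gene's mean over the 6 arrays, for Egln3 (left, black) and Epas1 (right, black) with the 5 genes nearest to each; the lines only join the points of a gene, since replicates have no order, and the dotted line separates controls from mutants. The Egln3 panel shows a step between the genotypes, with Gdpd2 within a distance of 0.05, and the Epas1 panel, on a finer scale, shows a high value in mutant replicate 1 and a low one in mutant replicate 2.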

How the data were processed

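Messenger RNA of 6 embryonic neocortices was measured on Affymetrix Mouse Gene 1.0 ST arrays. The deposited log2 values were made by the authors with Affymetrix Expression Console and RMA, per the submitters' processing notes, which corrects background, normalizes by quantiles and summarises probes. The sources used here give no versions and no genome build. RMA compresses differences near background and would hide a shift of most genes. Symbols came from GEO's platform annotation, and matching them to RefSeq through Entrez numbers changed 0 symbols. Of 35556 probe sets, 21789 had 1 symbol, 1621 several and 12146 none listed. Only the first were used, with the highest-mean probe set per gene.

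Groups came from the sample titles. The comparison of mutants with controls used limma 3.58.1 (R 4.3.3; lmFit, eBayes, no covariate), with Benjamini-Hochberg adjustment over 19938 genes, two-sided, and calls at an adjusted p under 0.05; intervals are 95% and moderated. The script was tested on simulated data. Exact permutation tests were used for single values. Arrays have no read depth, and their number limits precision. The 10 genes and the lists were chosen with earlier results of these data known. Named genes were the 10, and from each list those past the threshold and the 2 highest and 2 lowest others, with the 5 nearest in pattern to Egln3 and Epas1. Ncoa1, Stc2 and Bnip3 were named for an unadjusted p under 0.05. List genes without a single-symbol probe set were left out. Alternatives covered normalization, array weights, sex, the replicate block, leaving out each array, dim genes, probe set choice, variance model and threshold.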

Additional observations from a re-analysis of the deposited data

How the results depend on the processing

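The difference of Egln3 was positive in all 16 alternative settings, but most of these could not have turned its sign. Settings such as the replicate block, the variance model, the probe set choice and the threshold leave its value unchanged. With every mutant above every control, leaving out 1 array cannot reverse it either. When 1 array was left out it was 0.82 to 1.05, with 0 to 1 of the 10 genes and 20 to 50 of all genes past the threshold, against 1 and 57 with all arrays. Egln3 lost its call, leaving 0 of the 10 genes, with sex as a covariate (difference 0.93, adjusted p = 0.0606; 24 genes in all) and with a replicate block (difference 0.95, adjusted p = 0.0849; 34 genes in all). Same-numbered arrays deviated together with correlations of 0.03, -0.14 and 0.08, so the numbers give no sign of pairing. All genes past the threshold numbered 217 with array weights, 87 with trend and robust eBayes and 107 at an adjusted p under 0.1. In the other 8 settings without omissions Egln3 kept its call (adjusted p up to 0.0182).

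None of the 9 other genes passed in any of the 16 settings (lowest adjusted p 0.329). Signs that turned were all of differences near 0. With array weights Egln1 was at -0.0012, Egln2 at -0.028 and Epas1 at -0.013, and with sex as a covariate Egln1 was at -3e-05. With 1 array left out, Egln1 ranged from -0.032 to 0.053 and Epas1 from -0.028 to 0.155. The cause was not tested. The excess of Egln3 over its paralogs ranged from 0.81 to 1.03 with 1 array left out. Medians of the 5 further pathway lists lay between -0.0055 and 0.08 with 1 array left out. The precision is limited by the number of arrays.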
